A study of Mus musculus with 24 samples.

Results

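The regions described here are stretches of mouse chromatin that carried an ATAC-seq peak in cultured epidermal stem cells (EpdSCs) expressing SOX9 together with AFOS and in no other culture condition. ATAC-seq reads open chromatin by the insertion of a transposase. The peaks of the 7 culture lists were merged wherever they overlapped by at least 1 bp into 97078 regions, and regions were chosen by the presence of a peak in the SOX9+AFOS list and its absence in the other 6. This left 5518 SOX9+AFOS-only regions, which is 5.68% of the culture regions and 11.5% of the 48103 regions with a SOX9+AFOS peak. Merging in the 5 lists from skin gave 134385 regions in all. Since presence and absence of peaks chose these regions, neither their number nor their absence elsewhere is given as a finding; their sequence, position and presence in skin did not enter the choice.

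The cultured cells were keratinocytes from the back skin of male CD1 mice carrying rtTA under the Krt14 promoter, which is active in basal keratinocytes, and all groups shared that driver. The noDOX cells carried TRE-myc-Sox9 without doxycycline (DOX); the WT-SOX9 cells carried the same construct with DOX at 1 µg/ml. ΔHMG-SOX9 (TRE-myc-Sox9noHMG) lacks the DNA-binding domain and ΔTA-SOX9 (TRE-myc-Sox9noTA) the transactivation domain; both had DOX at 1 µg/ml. The labels give 3 days on DOX for 1 of the 2 samples of WT-SOX9, ΔHMG-SOX9 and ΔTA-SOX9. The AFOS cells carried TRE-FLAG-AFOS alone, SOX9+AFOS cells both TRE-myc-Sox9 and TRE-FLAG-AFOS, and SOX9+ARID1a cells TRE-myc-Sox9 and TRE-ARID1a, each with DOX at 1 µg/ml, for 3 days according to the peak names. The arms were built differently: lentiviral vectors brought the SOX9 versions into rtTA cells, whereas those for AFOS and ARID1a went into rtTA cells or, for a combination with SOX9, into cells that already had TRE-myc-Sox9. The skin lists came from EpdSCs sorted from K14rtTA; TRE-myc-Sox9 mice at D0 (postnatal day 21) and after 1 (W1, day 28), 2 (W2, day 35), 6 (W6, day 63) and 12 weeks (W12) on DOX, the last from skin grafted onto immunocompromised hosts. Each list pools 2 samples, so no spread between replicates could be computed and no difference between lists was tested; 95% intervals below are Wilson intervals and cover counting error over regions only. In pooled cells, opening in more cells and wider opening per cell cannot be told apart.

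SOX9 is an HMG-box transcription factor of hair follicle stem cells that can bind its motif within closed chromatin. AP1 factors are dimers of the FOS and JUN families that bind open enhancers throughout the epidermis. In AFOS the basic region of FOS is replaced by an acidic stretch, so JUN proteins that pair with it are lost to AP1 sites. TEAD factors carry the YAP and TAZ coactivators to DNA, NFI factors act in hair follicle stem cell enhancers, KLF factors bind CACCC-type elements, and CTCF anchors chromatin loops.

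Central 200-bp windows of 8 of these regions are printed to show what the sequences hold (GRCm38, plus strand, 5′ to 3′, read from the reference genome). Capitals mark matches to the letters searched, on both strands. For SOX factors these were ACAATAG, with ACAATGG as a second accepted form. For AP1 the letters were TGAGTCA, the site bound by FOS and JUN dimers. TEAD factors were searched as CATTCCA, and for NFI factors the TTGGCA part of their longer site was taken. The KLF search used CCACACC as its letters. RUNX matches had to read TGTGGT in full, and GATA factors were searched with the letters AGATAA alone. The first 2 are the highest-scoring region and the highest-scoring region with a SOX match, which also held a KLF and a TEAD match.
chr5:103360749-103360948, nearest Ptpn13: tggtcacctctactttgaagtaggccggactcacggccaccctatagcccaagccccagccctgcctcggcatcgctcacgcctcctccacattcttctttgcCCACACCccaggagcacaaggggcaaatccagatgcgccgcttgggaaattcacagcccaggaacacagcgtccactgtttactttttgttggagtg
chr1:88608262-88608461, nearest Arl4c: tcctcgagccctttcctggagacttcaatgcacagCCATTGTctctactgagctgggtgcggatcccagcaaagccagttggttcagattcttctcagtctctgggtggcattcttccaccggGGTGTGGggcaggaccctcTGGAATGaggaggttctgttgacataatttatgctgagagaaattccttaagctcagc
The following 2 had no skin peak at D0 and W1 and had peaks at W2, W6 and W12. The first held an NFI and a SOX match, and the second an NFI, a RUNX and a TEAD match.
chr1:118718086-118718285, nearest Tfcp2l1: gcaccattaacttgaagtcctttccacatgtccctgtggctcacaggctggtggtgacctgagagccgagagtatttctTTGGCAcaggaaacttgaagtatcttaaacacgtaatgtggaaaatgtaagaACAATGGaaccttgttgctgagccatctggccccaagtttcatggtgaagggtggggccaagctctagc
chr2:50886041-50886240, nearest Rnd3: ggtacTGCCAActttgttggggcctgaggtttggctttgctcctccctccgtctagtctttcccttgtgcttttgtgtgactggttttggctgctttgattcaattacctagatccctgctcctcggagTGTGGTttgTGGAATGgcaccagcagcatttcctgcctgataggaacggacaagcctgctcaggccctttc
Only 11 regions held TEAD, NFI and KLF matches together, and the 3 with the highest scores are shown. In the first, the TEAD and KLF letters overlap. The third was also among the few with an AP1 match, which overlaps a RUNX match.
chr16:20829756-20829955, nearest Thpo: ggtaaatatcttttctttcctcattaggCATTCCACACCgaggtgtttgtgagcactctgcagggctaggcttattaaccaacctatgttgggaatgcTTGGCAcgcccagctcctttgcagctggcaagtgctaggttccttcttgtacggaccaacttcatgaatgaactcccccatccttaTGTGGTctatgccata
chr5:142563491-142563690, nearest Radil: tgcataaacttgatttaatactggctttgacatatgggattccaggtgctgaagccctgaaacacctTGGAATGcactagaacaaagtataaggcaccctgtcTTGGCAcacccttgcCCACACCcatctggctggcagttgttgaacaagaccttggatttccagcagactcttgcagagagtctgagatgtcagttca
chr11:65153097-65153296, nearest 1700086D15Rik: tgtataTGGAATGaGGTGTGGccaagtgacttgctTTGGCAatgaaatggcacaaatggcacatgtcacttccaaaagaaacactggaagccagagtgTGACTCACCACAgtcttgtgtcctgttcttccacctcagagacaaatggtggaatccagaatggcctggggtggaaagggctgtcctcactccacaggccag
The last is the highest-scoring region with an AP1 match, at position 173 of the window; it stood 126th by score.
chr14:51008139-51008338, nearest Rnase10: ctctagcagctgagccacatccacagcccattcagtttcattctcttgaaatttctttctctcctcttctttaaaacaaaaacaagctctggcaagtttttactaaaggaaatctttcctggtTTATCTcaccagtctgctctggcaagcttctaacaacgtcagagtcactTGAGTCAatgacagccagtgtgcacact

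Peak scores are the authors' normalised scores, with 3 as the lowest kept. The SOX9+AFOS-only peaks were mostly weak. Their median score was 4.62 (25th to 75th percentile 3.60 to 6.75, highest 67.8), against a median of 10.6 over all 49458 SOX9+AFOS peaks; 43.6% scored at least 5 and 11.0% at least 10. Their median width was 356 bp. Regions found only in 1 of the other lists had median scores from 3.71 (ΔHMG-SOX9) to 5.03 (WT-SOX9), and their highest scores ran from 9.48 (ΔHMG-SOX9) to 42.2 (WT-SOX9). The 5 lowest-scoring regions, near Slc25a37, Esrp2, Cfap73, Mtnr1a and Sgk2, all scored 3 to within rounding. Just outside the choice were 5 regions whose only other list had its peak at 3.001 to 3.004. They lay near Sipa1l1, C2cd6, Slc29a3, Gm9844 and Plekha6 and scored 14.2, 6.45, 5.04, 8.22 and 31.6 in SOX9+AFOS. Among 3852 regions shared between SOX9+AFOS and exactly 1 other list, 1496 had a score under 4 in that list. The median distance from a SOX9+AFOS-only region to the nearest peak of another culture list was 4152 bp, and 7.10% lay within 500 bp of one.

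Facts of the lists bear on these values. The culture lists held 49458 to 60231 peaks, and SOX9+AFOS was the shortest. The peak names of AFOS, SOX9+AFOS and SOX9+ARID1a record fragments as input, and those of the other culture lists do not. The list labelled AFOS did not have fewer AP1 matches than noDOX (24.3% of its regions against 21.7%), whereas SOX9+AFOS had 11.4%; values without the list labelled AFOS in the choice are given where they bear. Of 12 regions centred in exons of Arid1a, which only the SOX9+ARID1a cells should carry as a construct, 12 had a peak in SOX9+ARID1a (scores 3.96 to 38.2), 8 in AFOS (3.17 to 8.69), 6 in SOX9+AFOS (3.43 to 7.86), 0 in WT-SOX9 and 1 in each remaining list; none was SOX9+AFOS-only, and none of the SOX9+AFOS-only regions was centred in an exon of Sox9, Fos or Arid1a. All 6 basal keratinocyte markers examined (Krt5, Krt14, Trp63, Itga6, Itgb4, Col17a1) had a peak within 1 kb of a transcription start site (TSS) in every culture list. Of 6 melanocyte markers, SOX9+AFOS had such a peak at 3 and the other lists at 0 or 1. Dct (17.7, also open in all 5 skin lists) and Mlana (4.49) had one in SOX9+AFOS alone and were thus SOX9+AFOS-only. Pmel had 19.7 in SOX9+AFOS and 9.12 to 29.8 in the other lists but noDOX, where it had none, and Tyr, Tyrp1 and Sox10 had none in any list. Of the other marker lists, SOX9+AFOS had 5 of 6 suprabasal (other lists 4 or 5), 2 of 6 fibroblast (1 or 2), 1 of 5 endothelial (0 or 1) and 2 of 6 immune markers (1 or 2). The part of melanocytes or of shared reads in the results was not tested.

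AP1 matches were scarce in the SOX9+AFOS-only regions. In the central 200 bp, 132 of 5518 regions held TGAGTCA on either strand (2.39%, interval 2.02 to 2.83). The share was 21% over all culture regions. It was 33.2% in regions found only in ΔTA-SOX9, 32.6% in those found only in the list labelled AFOS, 26.6% for SOX9+ARID1a, 26.0% for noDOX, 17.7% for ΔHMG-SOX9 and 11.1% for WT-SOX9. SOX9+AFOS-only regions were also below their own surroundings: 4 windows of 200 bp per region, centred 1000 and 1500 bp to either side, held the AP1 letters in 3.70% (3.46 to 3.95), a ratio of centre to flank of 0.647. The same ratio was 9.17 in AFOS-only and 3.17 in WT-SOX9-only regions. Requiring no absence in the list labelled AFOS gave 6064 regions, of which 2.59% held an AP1 match.

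**Figure D1:**
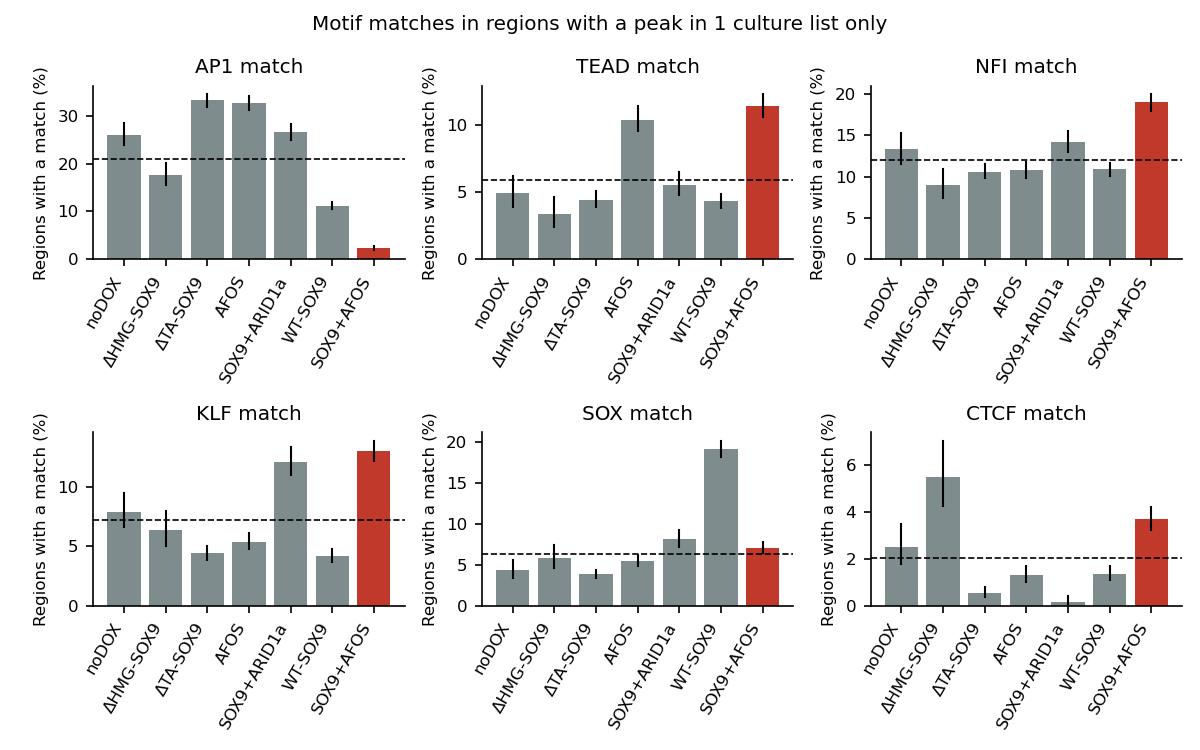
Share of regions (%, y axis) with a motif match in the central 200 bp, for regions with a peak in 1 culture list only; bars are lists (SOX9+AFOS in red), vertical lines 95% Wilson intervals, and the dashed line the share over all 97078 culture regions. SOX9+AFOS-only regions had the lowest AP1 bar (2.39%) and the highest TEAD, NFI and KLF bars (11.4%, 19.0% and 13.0%), with the TEAD bar of AFOS (10.4%) and the KLF bar of SOX9+ARID1a (12.1%) close to them.

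TEAD, NFI and KLF matches were more frequent. TEAD letters were found in 629 regions (11.4%, 10.6 to 12.3), against 5.92% of all culture regions. AFOS-only regions were close, at 10.4%, with an overlapping interval (9.54 to 11.4), while SOX9+ARID1a-only regions stood at 5.56% and WT-SOX9-only regions at 4.33%. NFI letters occurred in 1048 regions (19.0%), against 12% of all culture regions, 14.2% of SOX9+ARID1a-only, 10.9% of WT-SOX9-only and 10.8% of AFOS-only regions. KLF letters occurred in 719 regions (13.0%, 12.2 to 13.9), against 7.25% of all and 12.1% of SOX9+ARID1a-only regions. At least 1 of the 3 was present in 37.7% of SOX9+AFOS-only regions and in 23% of all culture regions; at least 2 were present in 5.55% and 2.07%. The KLF letters were added to the search after their frequency in these regions had been seen. They share bases with RUNX letters, and in 209 of the 284 regions with both the matches overlapped; RUNX letters, with or without KLF letters, stood at 20.4% against 17.3% of all regions.

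The matches were concentrated at the centres of the peaks. TEAD was 3.60 times as frequent in the central window as in the flanks (3.16%), KLF 2.81 times (flank 4.64%) and NFI 1.90 times (flank 9.99%). In regions found only in WT-SOX9 these ratios were 1.24, 1.21 and 1.13. AFOS-only regions had a like ratio for TEAD (3.22) and lower ones for KLF (1.33) and NFI (1.11), and SOX9+ARID1a-only regions a like ratio for KLF (2.72), with 1.69 for TEAD and 1.43 for NFI. The median GC content was 49.0%, against 48.5% of all culture and of SOX9+ARID1a-only regions, 45.5% of AFOS-only and 43.0% of WT-SOX9-only regions.

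**Figure D2:**
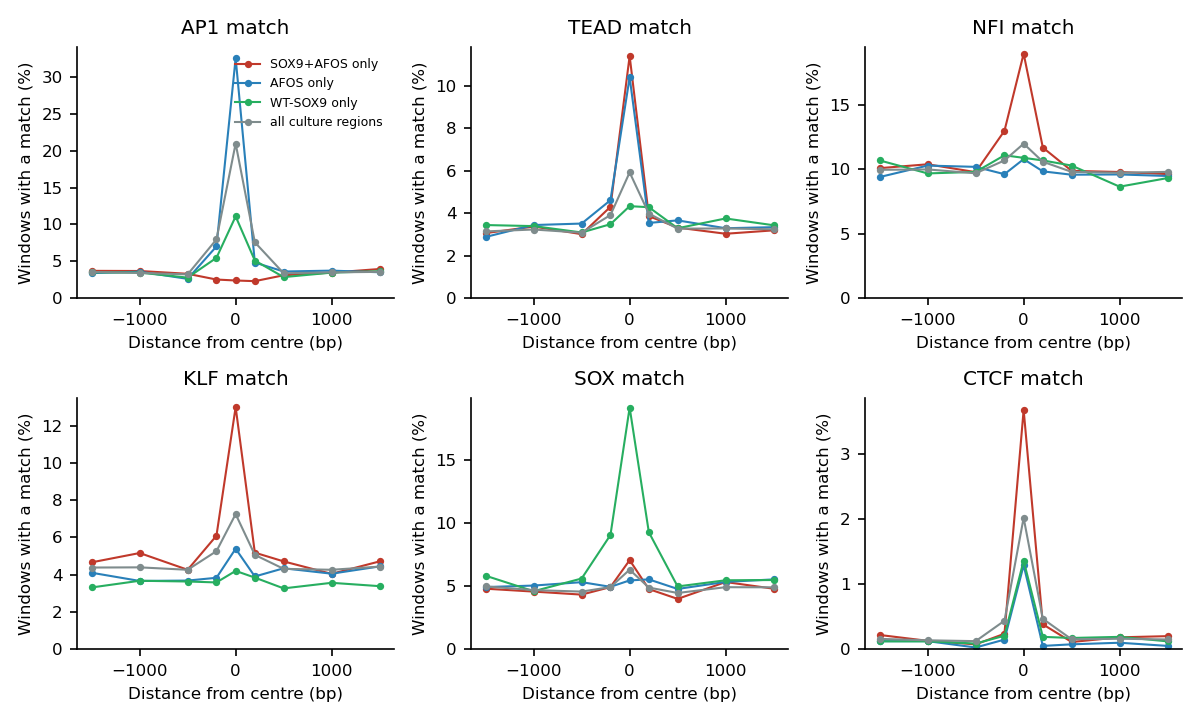
Share of 200-bp windows with a match (%, y axis) against the distance of the window from the region centre (bp, x axis) for SOX9+AFOS-only (red), AFOS-only (blue), WT-SOX9-only (green) and all culture regions (grey). In SOX9+AFOS-only regions TEAD rose to 11.4% at the centre from 3.16% in the flanks, and AP1 dipped from 3.70% to 2.39%.

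SOX matches were at 7.07% (390 regions, 6.42 to 7.77), against 6.31% of all culture regions and 4.87% of the flanks. SOX9+ARID1a-only regions were close, at 8.17% and 1.68 times their flanks, against 1.45 times here. Regions open only in WT-SOX9 held them in 19.2%. Regions open in the 3 lists with intact SOX9, namely WT-SOX9, SOX9+AFOS and SOX9+ARID1a, and in no other (2352 regions), held them in 20.2%. SOX core sites facing each other across 2 to 8 bases followed the same order, at 0.453% of SOX9+AFOS-only, 1.77% of WT-SOX9-only and 1.96% of the regions in the 3 lists. GATA letters stood at 9.42% against 9.39% of all regions. CTCF sites were present in 3.68% (3.21 to 4.21), against 2.02% of all culture regions and 0.181% of the flanks. They were more frequent in ΔHMG-SOX9-only regions, at 5.48% (4.25 to 7.03), and in regions that SOX9+AFOS shared with another DOX list but not with noDOX, at 4.56%.

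Sharing with other lists moved with these shares. SOX9+AFOS had a peak in 13970 regions without a noDOX peak, which is 14.4% of the culture regions. Of these, 5518 were in no other list, 3513 in 1 further list and 3359 in 2. The AP1 share was 2.39%, 4.38% and 5.42% across these 3 classes, and 8.28%, 8.75% and 9.71% with 3, 4 and 5 further lists. The TEAD share was 11.4%, 7.86% and 7.03% in the first 3, and 7.94%, 5.42% and 5.83% in the others. NFI stood at 19.0%, 15.5% and 15.7% in the first 3, and at 13.5%, 9.79% and 11.2% in the others. KLF differed little between SOX9+AFOS-only regions and those with 1 further list, at 13.0% and 12.4%. With 2 to 5 further lists KLF stood at 9.38%, 9.17%, 7.08% and 9.71%. SOX matches peaked at 15.5% in regions with 2 further lists, the class that holds the 2352 regions of the 3 intact-SOX9 lists.

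Among the SOX9+AFOS-only regions themselves, motif content varied with the height of the peak. From scores of 3 to 4 (1999 regions) to scores of 12 or more (389 regions), TEAD matches went from 9.70% (8.48 to 11.1) to 20.6% (16.8 to 24.9), KLF matches from 11.5% (10.1 to 12.9) to 21.1% (17.3 to 25.4), and NFI matches from 16.4% (14.8 to 18.1) to 24.2% (20.2 to 28.7). SOX matches stayed between 6.54% and 7.71% over the 5 score classes. CTCF sites went the other way, from 5.50% to 0 of 389 regions, where 3 counts would be a share of 0.771%. CTCF sites were also rarer at high scores over all culture regions (3.14% to 0.800%) and in WT-SOX9-only regions (2.51% to 0 of 593). Over all culture regions, TEAD went from 6.57% at scores of 3 to 4 to 5.45% at 12 or more, and NFI from 12.2% to 11.6%. Between the lowest and the highest class of SOX9+AFOS-only regions, only NFI of these 3 motifs rose at every step, and KLF stood at 13.9% and 11.6% in the second and the third class. Other sets moved alike for some motifs: SOX9+ARID1a-only regions went from 11.8% to 21% (12.7 to 32.6, 62 regions) for KLF and from 5.76% to 9.68% (4.51 to 19.5) for TEAD, and AFOS-only regions from 10.3% to 18.2% (8.61 to 34.4, 33 regions) for TEAD. WT-SOX9-only regions went from 5.02% to 4.22% for TEAD and from 4.86% to 3.20% for KLF.

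**Figure D3:**
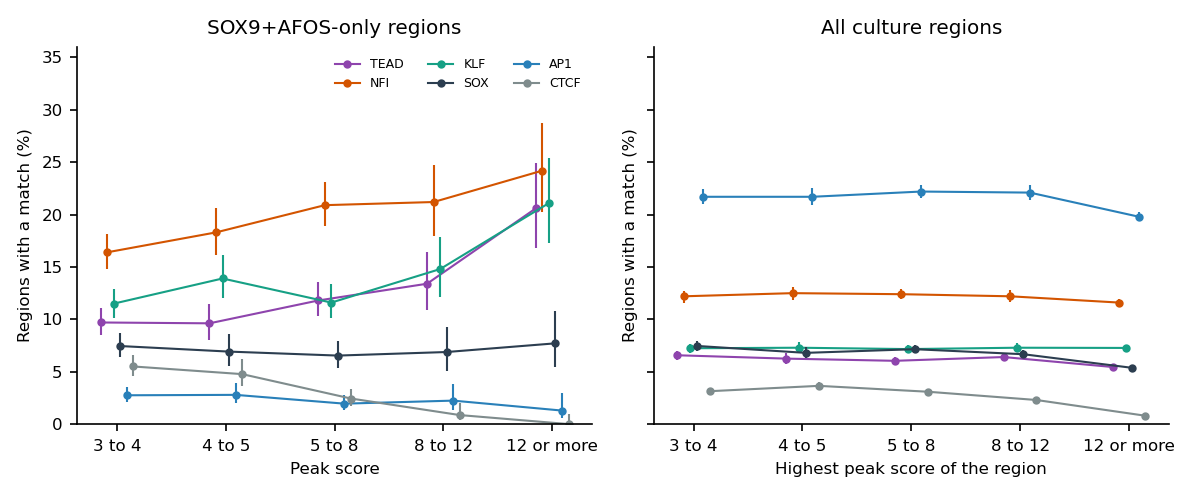
Share of regions with a match (%, y axis) by peak score (x axis, the authors' normalised score) in SOX9+AFOS-only regions (left) and in all culture regions by their highest score (right); vertical lines are 95% Wilson intervals. On the left TEAD, NFI and KLF reached 20.6%, 24.2% and 21.1% at scores of 12 or more while CTCF fell to 0; on the right TEAD, NFI and KLF stayed between 5.45% and 12.5%.

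The regions lay away from promoters. Within 1 kb of a protein-coding TSS were 192 of them (3.48%), compared with 13.2% of all culture regions, 2.95% of WT-SOX9-only and 2.00% of AFOS-only regions. Regions found only in noDOX stood higher, at 9.31% (7.88 to 11.0). Introns held 44.7%, sequence outside genes 48.6% and exons 3.15%; the median distance to a TSS was 24151 bp. The promoters with the highest scores were those of Map3k21, a MAP kinase kinase kinase (26.6), Cyp4a32, a cytochrome P450 (22.5), and Lrrc52 (21). The 192 promoter regions had a skin peak in 63%, against 37.6% of those farther away. The same split was not computed for all culture regions. Of all SOX9+AFOS-only regions, 17.7% had another one within 10 kb, against 12.3% for WT-SOX9-only and 7.51% for AFOS-only regions, which differ in number (5864 and 4100).

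Each of the 10 highest-scoring regions was named with its nearest protein-coding TSS, at distances from 4717 bp (Nanog) to 409338 bp (Alcam). The highest, at chr5:103360472-103361225, scored 67.8 and lay 64652 bp from Ptpn13, which encodes a protein tyrosine phosphatase. It had no D0 or W1 peak and scored 23.3, 16.9 and 7.92 in the W2, W6 and W12 lists of skin. The next lay 4717 bp from Nanog, a homeobox gene of pluripotent cells, at chr6:122702266-122703277, with a score of 60.4 and weak skin peaks at W2 (3.97) and W6 (3.26). An intron of Syn3 (chr10:86258900-86259590), 41127 bp from the metalloproteinase inhibitor gene Timp3, held a peak of 55.2 that no skin list had. The remaining 7 were near Elac1 (53.3), Fras1 (49.8), Emp2 (47.8), Mocs2 (44.0), Arl4c (42.0), Alcam (41.3) and Abca4 (35.3). Fras1 encodes an extracellular matrix protein of the epidermal basement membrane, and its region lay in its own intron, at chr5:96412532-96413436, 39029 bp from the TSS. Of the 10, 5 held a KLF match, 3 an NFI match, 1 a TEAD match and 0 an AP1 match. The 1 with a SOX match, near the small GTPase gene Arl4c, was without a skin peak. The regions near Ptpn13 and Fras1 lay on chromosome 5 and those near Emp2 and Alcam on chromosome 16.

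Below the first 10, regions with a SOX match included one in an intron of Ctif, 72106 bp from the inhibitory SMAD gene Smad7 (25.8), with a skin score of 7.36 at D0, none at W1, and 37.7, 26.4 and 7.99 at the later times. Another, at chr1:118717769-118718602, 90240 bp from Tfcp2l1, a transcription factor gene of the grainyhead family, scored 25.5 and appeared in skin at W2 (39.2), W6 (17.1) and W12 (13.6) only. A region 40784 bp from Pid1 scored 26.8, and one 31900 bp from Zfp395 scored 24.4 with a peak in all 5 skin lists. Regions with an AP1 match scored less. The highest was the Rnase10 promoter region (17.8), followed by regions near C1qtnf7 (15.8), Tnfsf15 (14.3), BC052040 (14) and Gm10260 (13.1).

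Many of these regions had no peak in skin either. No skin list had a peak in 3393 of them (61.5%), while 2125 (38.5%, 37.2 to 39.8) had a peak in at least 1, compared with 59.7% of all culture regions. Regions found only in the list labelled AFOS had one in 15.7%, WT-SOX9-only regions in 26.4% and SOX9+ARID1a-only regions in 36.3%. For noDOX-only regions the share was higher than here, at 55.0% (52.3 to 57.6). The D0 list had a peak in 17.3% of the SOX9+AFOS-only regions and the W1 list in 21.3%, followed by 22.2% for W2, 28.5% for W6 and 21% for W12. Over all culture regions the D0 and W1 lists both gave 39.1%, and the later lists 43.8%, 51.1% and 51.3%, with no lower share for W12 than for W6. For WT-SOX9-only regions the D0 and W1 lists gave 6.43% and 6.57%, and the W2, W6 and W12 lists 15.5%, 21.8% and 17.6%. The skin lists differ in length, from 57334 peaks at D0 to 75956 at W6, so a share moves with how much was called. A peak in all 5 lists was found in 542 regions (9.82%, against 31.4% of all culture regions). In these the median skin score was 9.80, 11.1, 11.0, 9.31 and 7.64 in the lists from D0 to W12. Over all culture regions of that kind it was 17.3, 19.0, 17.5, 16.4 and 16.7.

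The pattern of opening late, with no skin peak at D0 and W1 and one at W2, W6 or W12, was found in 807 SOX9+AFOS-only regions (14.6%, 13.7 to 15.6), against 17.1% of all culture regions. A peak in any skin list was itself rarer here, at 38.5% against 59.7%. Among regions with a skin peak, the late pattern was therefore more frequent here than over all culture regions. Of the 807, 278 had a peak in W6 alone, the longest skin list (5.04% of SOX9+AFOS-only regions, against 2.66% of all culture regions). WT-SOX9-only regions had the late pattern in 18.3% and the regions of the 3 intact-SOX9 lists in 45.6%. Regions found only in noDOX, without induced SOX9, had it in 17.1% (15.2 to 19.2). It was found in 469 of 2840 SOX9+ARID1a-only and in 316 of 4100 AFOS-only regions. Peaks at all of W2, W6 and W12 were found in 161 (2.92%), against 5.25% of all culture regions, 6.11% of WT-SOX9-only regions and 26.4% of the regions of the 3 lists. The highest-scoring of the 161 were near Ptpn13, Tfcp2l1, Rnd3 (24.9), Cyp4a32 and Alcam (19.1). Peaks only at D0 or W1 were found in 259 (4.69%), against 2.08% of all culture regions, 3.56% of SOX9+ARID1a-only, 3.55% of ΔHMG-SOX9-only, 3.23% of noDOX-only and 0.802% of WT-SOX9-only regions.

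Motif content differed between these skin classes. NFI letters were in 30.3% (26.5 to 34.3) of the regions open in all 5 skin lists and in 16.5% (15.3 to 17.8) of those open in none; over all culture regions the same classes had 12.5% and 10.7%. SOX9+ARID1a-only regions had the same order, at 31.5% (26.1 to 37.4) and 10.9%, and so had AFOS-only regions, at 20.4% (13.6 to 29.4) and 10.2%. TEAD letters went the other way, at 7.56% (5.62 to 10.1) and 13.2% (12.1 to 14.4), as they did over all culture regions, at 3.70% and 7.71%. SOX letters were most frequent in the regions opening late, at 10.7% (8.71 to 13.0), and stood at 2.70% (1.32 to 5.47) in those open at D0 or W1 only. All culture regions had the same order for SOX, at 9.57% and 3.02%. AP1 letters lay between 1.54% and 2.59% in every class, while late-opening culture regions as a whole had them in 28.4%.

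**Figure D4:**
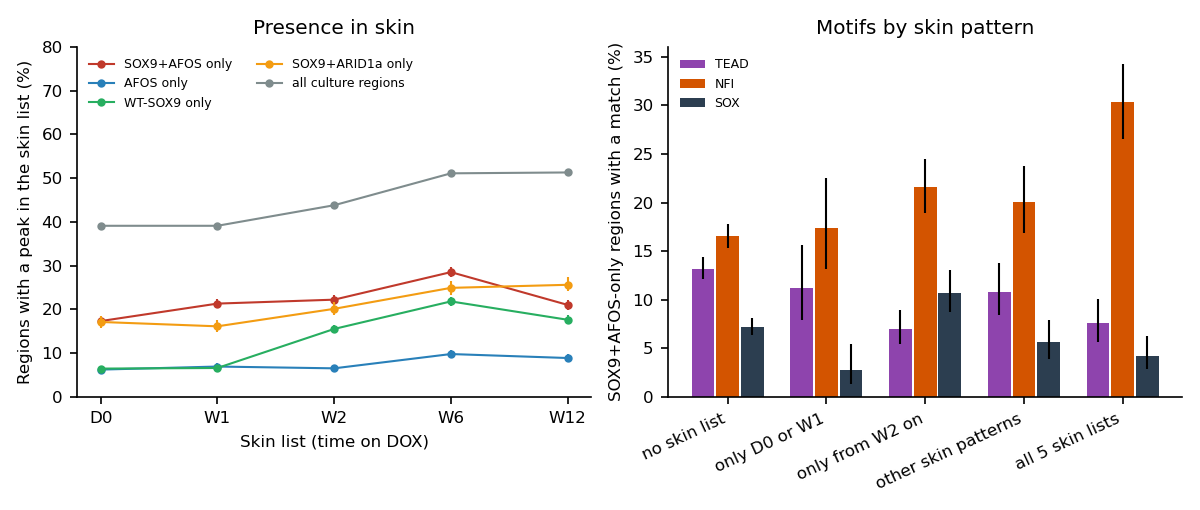
Left, share of regions with a peak in each skin list (%, y axis; time on DOX, x axis) for SOX9+AFOS-only and other sets; right, share of SOX9+AFOS-only regions with a TEAD, NFI or SOX match by skin pattern. Vertical lines are 95% Wilson intervals. The SOX9+AFOS-only line lay between 17.3% and 28.5%, and the NFI bar was highest, at 30.3%, for regions open in all 5 skin lists.

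Within 100 kb of a TSS were 4653 of the regions, nearest to 3398 genes, of which 888 had at least 2. The genes with the most, 7 each, were Hunk, which encodes a protein kinase, Ppargc1a, a coactivator of mitochondrial genes, Sik1, a salt-inducible kinase, and Tns3, a tensin of focal adhesions. Hunk had 7 of its 13 culture regions in this set, from a promoter region 25 bp from the TSS (12.3) to one 58763 bp away (10.5), with scores between 5.58 and 14. Ppargc1a had 7 of 11, with scores up to 21.1 and skin peaks in 5, whereas noDOX had a peak in 1 of the 11. Its strongest region, 41836 bp from the TSS, scored 8.62 at D0 and 39 at W2 in skin. Sik1 had 7 of 32 and Tns3 7 of 25. Ephb3, Nedd4l and Sulf2 had 6 each, and 17 genes shared 5, so a list of the first 10 would cut through a tie. Among those with 5 were the WNT receptor genes Fzd7 and Fzd10, the YAP pathway gene Wwc1 and Kank4, in which 5 of 6 culture regions were SOX9+AFOS-only. Of the genes named here, Hunk and Ephb3 lie on chromosome 16 and Ppargc1a and Fzd10 on chromosome 5. Those chromosomes had the highest SOX9+AFOS-only shares, at 9.10% and 9.50%, against 5.68% of all culture regions.

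The SOX9+AFOS-only share of the culture regions near a gene was 5.82% over all genes. Lists of genes were counted against it, as a description, since regions at 1 gene are not independent. Epidermal identity factors had 24 of 256 (9.38%, 6.38 to 13.6) at 13 of 18 genes. The highest of these was an intron of the epithelial ETS factor gene Ehf (27.8, chr2:103293353-103295015), and others lay near Cebpb (12.8), Zfp750 (11.9), Tfap2c (10.7) and Trp63 (9.70), the last open in all 5 skin lists. WNT pathway genes had 21 of 207 (10.1%, 6.73 to 15.0) at 9 of 20 genes, with 5 each at Fzd7 (highest 20.6) and Fzd10 (13.9) and 3 at the ligand gene Wnt7b (18.9), whose highest held a TEAD match. The TGF-beta and BMP pathway had 19 of 242 (7.85%) at 12 of 20 genes, led by Smad7. AP1 subunit genes had 9 of 116 (7.76%, 4.14 to 14.1) at 7 of 13 genes. The 2 regions at Fos lay 16416 and 43371 bp from its TSS, scored 19.0 and 5.53, and were open in all 5 skin lists.

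Hair follicle stem cell transcription factors had 14 of 212 (6.60%, 3.97 to 10.8) at 6 of 15 genes, among them Runx1 (10.4), Tcf7l2 (9.18) and Nfatc1 (7.31). Hair follicle and outer root sheath markers had 9 of 122 (7.38%), including one 1438 bp from the Krt17 TSS (14.4) and one in an intron of Tnc (13.0). SOX family genes had 5 of 83 (6.02%), 3 of them at Sox13, where the highest (11.0) held a SOX match and was open in skin at W2, W6 and W12 only. Known cartilage targets of SOX9 had 5 of 68 (7.35%), EMT factors and cadherins 3 of 85 (3.53%), the Hedgehog pathway 3 of 95 (3.16%), RUNX and GATA factors 3 of 69 (4.35%), epidermal keratins 1 of 30 (3.33%) and the genes delivered by the constructs 2 of 39 (5.13%). A list of YAP and TEAD genes and their targets was drawn up after the TEAD matches had been seen. It had 25 of 231 (10.8%, 7.44 to 15.5) at 11 of 18 annotated genes, with the highest at Wwc1 (17.1), Ccn2 (15.9), Tead1 (14.6) and Ptpn14 (12.1). The regions at Wwc1 and Tead1 with these scores held a TEAD match. NFI and KLF genes, also listed afterwards, had 6 of 123 (4.88%).

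The regions were spread unevenly over chromosomes. Chromosome 5 had 560, which is 9.50% (8.78 to 10.3) of its culture regions, and chromosome 16 had 298 (9.10%, 8.16 to 10.1), while chromosome 13 had the lowest share, 3.89% (3.33 to 4.55). The level of peaks common to every list moved with this. Over regions with a peak in all 7 culture lists, the median ratio of the SOX9+AFOS score to the noDOX score was 0.933 in all, 1.13 on chromosome 5, 1.01 on chromosome 16 and 0.726 on chromosome 13. The order was not the same throughout: chromosomes 11, 17 and 15 had higher ratios than chromosome 16, at 1.10, 1.05 and 1.03, with lower shares of 6.21%, 6.73% and 6.11%. Across the 20 chromosomes, which share the same 2 lists, the share of SOX9+AFOS-only regions and this ratio had a Spearman rho of 0.833; with the ratio of SOX9+ARID1a to noDOX it was 0.682, and with those of the remaining lists between -0.445 and -0.337. SOX9+ARID1a-only regions were also most frequent on chromosome 5 (5.34% of its regions against 2.93% in all). The part of chromosome-wide level in the choice of regions was not tested. The 858 regions on chromosomes 5 and 16 had AP1 letters in 2.68%, TEAD in 12% and NFI in 17.8%, and the 4660 on the other chromosomes in 2.34%, 11.3% and 19.2%. CTCF sites were in 5.94% and 3.26%.

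**Figure D5:**
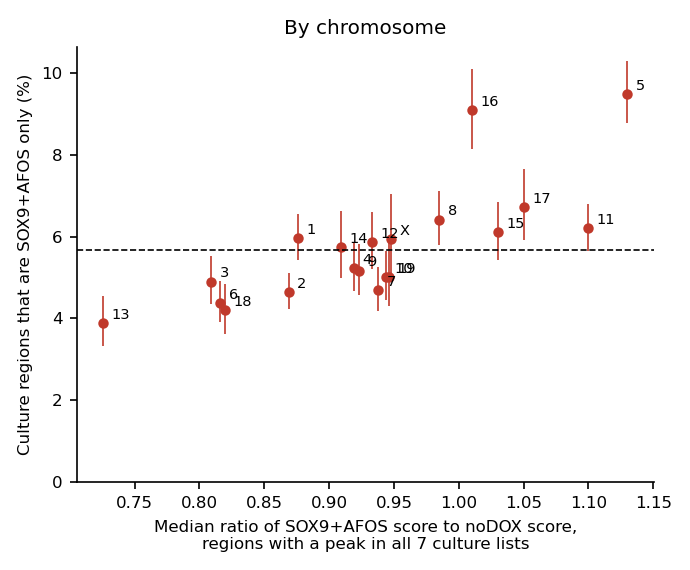
Share of the culture regions of a chromosome that were SOX9+AFOS-only (%, y axis, with 95% Wilson intervals) against the median ratio of SOX9+AFOS to noDOX score over regions with a peak in all 7 lists (x axis); points are chromosomes and the dashed line is the share over all, 5.68%. Chromosomes 5 (9.50%) and 16 (9.10%) stand above the others, at ratios of 1.13 and 1.01.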

How the data were processed

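ATAC-seq was made from 24 samples in 12 groups of 2, and each deposited peak list pools the 2 samples of a group. The authors processed reads with PEPATAC; the submitters' notes name Bowtie2 2.2.9, SAMtools 1.9, Picard 2.3.0 and MACS2 2.1.1, on GRCm38. The score in the culture and skin lists is the authors' normalised peak score, of which the deposited lists keep values of at least 3; the deposited fold enrichment (a ratio, MACS2) of the skin lists was tabulated only. Columns of -log10 p or q values were not used. Sequencing depth is unknown from these lists, so intervals (95% Wilson, SciPy 1.17.1) count regions, not reads.

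Peaks on the autosomes and X were merged with pandas 2.3.3, and motifs were searched in the central 200 bp of GRCm38 sequence (pysam 0.24.0). The nearest protein-coding TSS came from GENCODE M21. Merging and motif counting were tested on simulated data. Regions were named by a fixed rule: the 10 highest scores, the 5 highest with a SOX match, with an AP1 match and with skin peaks at W2, W6 and W12 only, the 5 lowest and the nearest excluded ones, and the genes with the most regions; promoters, list genes and the printed TEAD, NFI and KLF regions were added by score. The regions and the gene lists were chosen with earlier results of these data known. Alternatives changed scores, overlaps, list lengths, the lists required to lack a peak, the window and the distance to a TSS.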

Additional observations from a re-analysis of the deposited data

How the results depend on the processing

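No paired analysis was possible because each list pools its 2 samples and carries no replicate. The number of regions stayed within 1.5 times 5518 under 7 of 8 alternatives, and was 2407 with a score of at least 5 asked of the SOX9+AFOS peak only. The AP1 share left its interval at 1.91% under that choice and at 5.06% with the whole region scanned. The SOX share was 6.29% with a score of at least 5 in every list and 12% with the whole region scanned. The share near a TSS was 4.16% with a score of at least 5 in every list, 6.03% with absence asked only of the AFOS and SOX9+ARID1a lists, and 14% within 5 kb. The share with a skin peak was 49.6% with a score of at least 5 in every list, 41.3% with it for the SOX9+AFOS peak, 41.2% with lists of equal length, 42.2% with sharing by at least 50% cover, 47.6% with absence in 2 lists, 26.0% with skin scores of at least 5 and 36.5% with skin peaks over at least 50% of the region. The late-opening share was 16.6% with a score of at least 5 in every list, 15.7% with it for the SOX9+AFOS peak, 16.8% with absence in 2 lists, 10.1% with skin scores of at least 5 and 13.4% with the skin cover rule. Further alternatives were chosen after seeing the data: dropping the list labelled AFOS, and leaving out chromosomes 5 and 16; neither moved any of the 6 values past these limits. The TEAD, NFI and KLF shares were not among these 6 values. Neither were their ratios to the flanks or their course over scores. With whole regions scanned, all culture regions held an AP1 match in 36.3%. The lack of depth and of replicate lists limits every value here.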
